A study of Homo sapiens with 6 samples.

Results

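The 10 genes described here carry the ACTH signal of the adrenal cortex from its receptor to the breakdown of cAMP, and they were followed in 6 libraries of H295R cells, a human adrenocortical carcinoma line. They were taken by gene symbol from the deposited count table and are the receptor gene MC2R, its accessory protein gene MRAP, the PKA catalytic subunit genes PRKACA and PRKACB, the PKA regulatory subunit genes PRKAR1A, PRKAR1B, PRKAR2A and PRKAR2B, and the cAMP phosphodiesterase genes PDE8A and PDE8B. These are 10 of the 57341 named genes of the table, and all 10 were counted in every library and passed the filter on low counts. PKA subunit mRNA was abundant, led by PRKAR2B and PRKAR1A per kilobase of exon, while MC2R and MRAP mRNA was scarce in both groups. None of the 10 genes passed an adjusted p of 0.05 between the groups with group as the only term, against 3.73% of all tested genes. PDE8B came nearest, at a fold of 0.742 for the cells labelled H295R-PM-Ptc+ over those labelled H295R (95% interval 0.567 to 0.970 before adjustment). These group names are exchanged in the normalized table of the study. With same-numbered libraries paired in the model, PDE8B passed (edgeR adjusted p = 0.00190), 1 of 10 against 22.5% of all tested genes.

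ACTH binds MC2R, a melanocortin receptor that needs MRAP to reach the cell surface, and the receptor works through the Gs protein and adenylyl cyclase to raise cAMP. In the resting PKA holoenzyme a pair of regulatory subunits holds the catalytic subunits inactive, and cAMP binding to the regulatory subunits sets the catalytic subunits free to phosphorylate steroidogenic and transcription factors. PDE8A and PDE8B hydrolyse cAMP with high affinity and limit the signal. Inherited loss of PRKAR1A causes a pigmented nodular disease of the adrenal cortex, and activating changes in PRKACA occur in cortisol-producing adenomas.

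The question of the study was how the cells with Ptch1, the Hedgehog receptor, at their plasma membrane differ from the line they came from. Of the libraries, 3 were labelled H295R, the parental line, and 3 were labelled H295R-PM-Ptc+, cells sorted from H295R by flow cytometry for surface Ptch1 and expanded in culture. No treatment or genetic change was given for either group, and both therefore share the background of 1 cell line kept in culture. Whether the 3 replicates were separate cultures was not stated, so that p-values measure only the spread between these libraries, which may be technical.

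Each library held between 23264403 and 25813247 fragments counted on genes. PTCH1, the gene the cells were sorted for, went against the labels, with 21.3 ± 2.56 CPM (counts scaled to the normalized library size, SD, n = 3) in the H295R-labelled libraries and 12.2 ± 2.19 CPM (SD, n = 3) in the H295R-PM-Ptc+-labelled ones. Its log2 fold change was -0.81 (SE 0.147, edgeR adjusted p = 0.0207), and the call was lost without H295R replicate 2 (adjusted p = 0.0799), H295R replicate 3 (0.0921) or H295R-PM-Ptc+ replicate 2 (0.0618), and without replicate 2 (0.225) or 3 (0.191) in both groups. Each of the 6 deposited columns was also a scaled copy of the column with the other group name in the normalized table of the study. Under that naming PTCH1 would be higher in the cells sorted for surface Ptch1, and every direction given here would be the opposite. The counts alone do not settle which naming is right. Directions are therefore given for the libraries as labelled in the deposited table, always as labelled H295R-PM-Ptc+ against labelled H295R. Of 16710 genes tested, 404 were higher and 220 lower at an adjusted p under 0.05, and the median log2 fold change over all of them was 0.00094. Replicate 1 stood apart in both groups, since 2013 genes were called without it, against 64 without replicate 2 and 84 without replicate 3 of both groups. All 8 adrenocortical markers were measured, with summed levels of 881 to 1163 CPM in the H295R-labelled libraries and 960 to 1218 CPM in the H295R-PM-Ptc+-labelled ones. DBH and PNMT of the adrenal medulla, LUM of fibroblasts and PTPRC of leukocytes were at 0 in every library. In contrast, COL1A1 of fibroblasts had 188 to 244 counts (7.40 to 10.5 CPM) and CD14 of leukocytes 15 to 32 counts (0.607 to 1.29 CPM). Of the medulla markers TH had 0 to 2 counts, and CHGA, a neuroendocrine granule protein gene, had 18 to 39 counts, or 0.753 to 0.809 CPM in the H295R-labelled libraries and 0.950 to 1.53 CPM in the H295R-PM-Ptc+-labelled ones, without overlap (log2 fold change 0.57, SE 0.259, edgeR adjusted p = 0.305). The summed levels of 3 other cell types were below that of the adrenocortical markers. For the 4 fibroblast markers they were 7.91 to 9.29 CPM against 9.12 to 10.97 CPM, which is above the levels of MC2R and MRAP. The 3 endothelial markers summed to 0.0394 to 0.167 CPM against 0.121 to 0.235 CPM. The 4 leukocyte markers summed to 0.607 to 1.14 CPM against 1.12 to 1.33 CPM. The part of these cell types in the results was not tested.

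Upstream stretches of 4 genes are shown, PRKAR1A and PRKACA because they hold matches to the cAMP response element, MC2R as the member with the lowest level per kilobase and PDE8B as the member with the largest difference. They were taken from RefSeq (GRCh38.p14), in which 9 of the 10 genes had a promoter entry, MRAP being the one without. Each reads 5′ to 3′ on the strand of its gene and ends at the base before the start site, except that of PRKAR1A, which is cut to 30 bases around the element because these bases lie in an exon of another of its transcripts. The stretches of PRKACA and PDE8B lie inside the gene span of the deposited table, whose 5′ ends are 322 and 231 bases before these start sites. Capitals mark the full element TGACGTCA or the short element TGACG within it, which reads CGTCA on the opposite strand.
PRKAR1A, chr17:68512370-68512399, plus strand: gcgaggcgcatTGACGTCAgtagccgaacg
PRKACA, chr19:14117763-14117862, minus strand: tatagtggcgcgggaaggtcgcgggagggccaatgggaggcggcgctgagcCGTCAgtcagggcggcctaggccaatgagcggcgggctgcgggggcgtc
MC2R, chr18:13915708-13915807, minus strand: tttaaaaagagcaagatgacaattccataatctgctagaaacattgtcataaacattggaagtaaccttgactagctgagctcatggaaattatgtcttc
PDE8B, chr5:77210580-77210679, plus strand: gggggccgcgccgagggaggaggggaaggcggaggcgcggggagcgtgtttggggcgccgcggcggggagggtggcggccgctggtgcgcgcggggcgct

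The match to the full element in PRKAR1A began 49 bases before the start site at 68512430, and the match to the short element in PRKACA also began 49 bases before its start site. In the 250 bases upstream of a start site, searched on both strands, the full element was in 1 of the 29 windows of the 9 genes and in 1.65% of all 35116 windows. The short element, which the full element contains, was in 5 windows of 4 genes (PRKACA, PRKACB, PRKAR1A and PRKAR1B) and in 21.2% of all windows. The letters AAGGTCA, a site of the adrenal factor NR5A1, were in none of the 29 windows and in 3.44% of all. Over these 250 bases the start site of MC2R shown had 30% G and C and no CpG and that of PDE8B 80% G and C and 34 CpG, against medians of 58% G and C and 11 CpG over all windows.

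The levels of the 10 genes were compared per kilobase of exon, as CPM per kilobase averaged over the 6 libraries. The length used was the summed exon length of each gene, and the order depends on it. In CPM, before this division, PRKAR1A (344 to 376) was above PRKAR2B (226 to 262). PRKAR2B was highest at 57.0 CPM per kilobase (range over libraries 52.4 to 60.8), followed by PRKAR1A at 53.0 (50.5 to 55.1), and the ranges of these neighbours overlapped. PRKACA at 28.6 (24.5 to 30.3) and PRKAR2A at 26.7 CPM per kilobase (23.4 to 29.2) came next and also overlapped, and PRKAR1A stood 1.85 times above PRKACA without overlap. PRKACB stood alone at 9.87 CPM per kilobase (8.96 to 10.4), with a gap on either side. PRKAR1B at 6.28 (5.58 to 6.77) overlapped with PDE8A at 5.24 CPM per kilobase (4.35 to 6.10). MRAP at 1.92 (1.61 to 2.15) lay within the range of PDE8B at 1.71 CPM per kilobase (1.29 to 2.45), and MC2R was lowest at 0.986 (0.845 to 1.13), below every library of PDE8B. Among all tested genes PRKAR2B was at the 95.6th percentile of these levels, PDE8A at the 54.7th and MC2R at the 23.3rd.

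**Figure D1:**
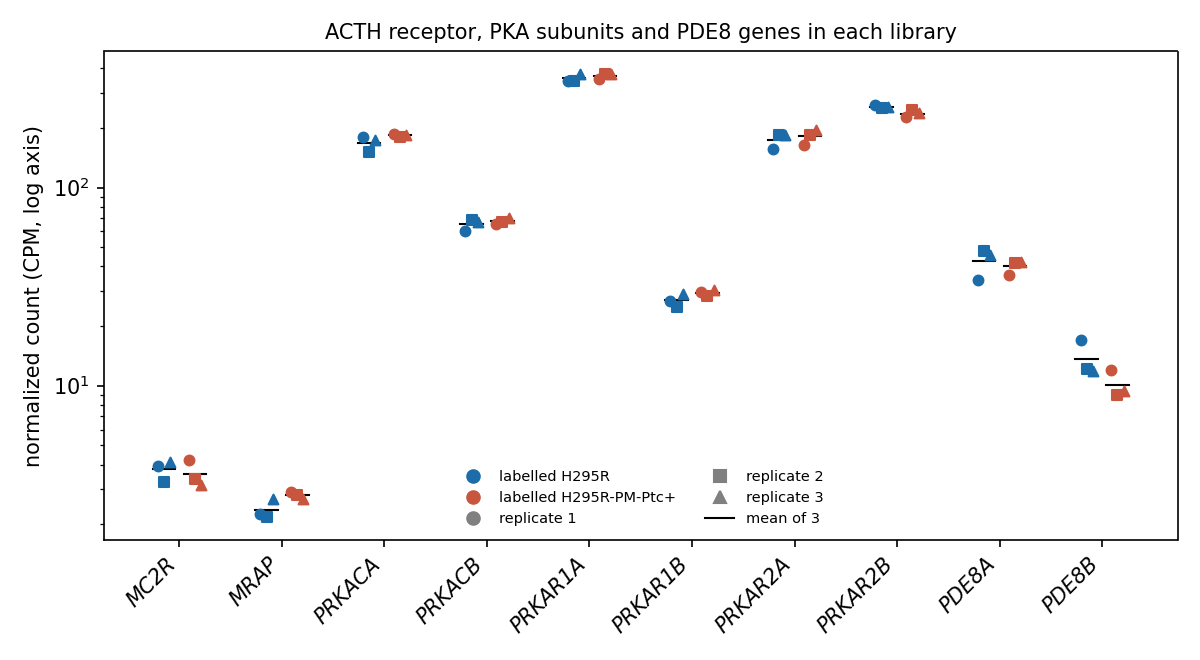
The normalized count of each gene (CPM, log axis) is plotted for each library, with color for the labelled group, the marker shape for the replicate number and a bar for the mean of 3. The gene levels span from 2.17 CPM for MRAP to 376 CPM for PRKAR1A, while the groups lie close together for every gene, PDE8B being the most apart.

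Between the groups, 0 of the 10 genes passed an adjusted p of 0.05 in edgeR's quasi-likelihood test, against 3.73% of all tested genes, and DESeq2 called 0 as well. At an unadjusted p under 0.05 only PDE8B passed, 1 of 10 against 17.3% of all genes. With the replicate number as a block, tried because same-numbered libraries deviated together, PDE8B passed, 1 of 10 against 22.5%. The groups did not overlap for MRAP, PRKACA and PRKAR2B, 3 of 10 against 23.5% of all genes, a share near that background. The median log2 fold change of the 10 genes was 0.048. A miss of the threshold does not show that levels were equal, and the 95% interval of each difference is given below.

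**Figure D2:**
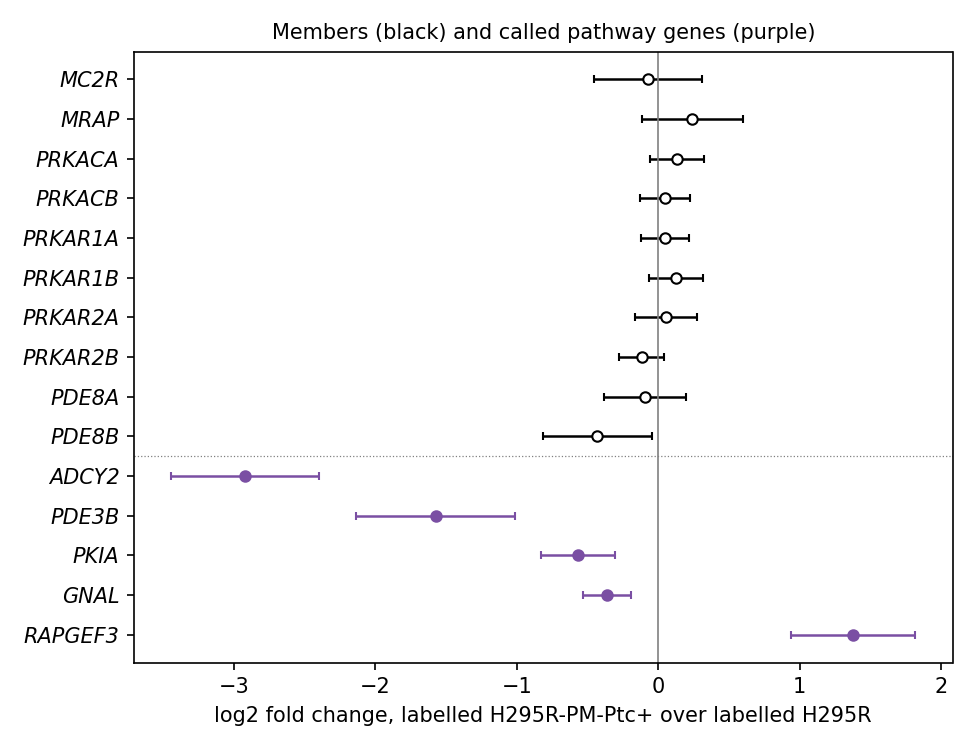
The log2 fold change of the H295R-PM-Ptc+-labelled libraries over the H295R-labelled ones (x axis) is drawn for the 10 genes in black and for the 5 other genes of the cAMP pathway with an adjusted p under 0.05 in purple, with 95% intervals as bars and filled points for called genes. The 10 genes lie between -0.43 (PDE8B) and 0.24 (MRAP), while ADCY2 lies at -2.92 and RAPGEF3 at 1.38.

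MC2R (chr18:13882044-13915707, minus strand, hg38) encodes the ACTH receptor. In the H295R-labelled libraries it had 94, 83 and 102 counts, or 3.93, 3.27 and 4.13 CPM. In the H295R-PM-Ptc+-labelled ones it had 108, 84 and 73 counts, or 4.23, 3.38 and 3.15 CPM. The groups overlapped, and both the highest and the lowest library were labelled H295R-PM-Ptc+. The means were 3.78 ± 0.451 and 3.59 ± 0.565 CPM (SD, n = 3), and the log2 fold change of -0.071 (SE 0.170, 95% interval -0.46 to 0.31, edgeR adjusted p = 0.891) turned to 0.0019 without H295R-PM-Ptc+ replicate 3. Counting error alone was 9.62% to 11.7% of each count, close to the 11.9% and 15.8% by which the replicates varied. In bulk libraries like these, fewer cells that express a gene and less RNA per cell cannot be told apart.

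MRAP (chr21:32291813-32314784, plus strand, hg38) encodes the protein that brings MC2R to the cell surface. Its level was 2.26, 2.17 and 2.67 CPM in the H295R-labelled libraries, from 54, 55 and 66 counts. It was 2.90, 2.82 and 2.68 CPM in the H295R-PM-Ptc+-labelled ones, from 74, 70 and 62 counts. The groups did not overlap, but the replicate 3 libraries were all but equal, at a log2 difference of 0.0046 against 0.36 and 0.38 for replicates 1 and 2. The log2 fold change was 0.24 (SE 0.159, 95% interval -0.12 to 0.60, edgeR adjusted p = 0.499), which did not pass the threshold, also with the replicate block (0.326). Of the 1346 exon bases of MRAP, 62.5% are also exon of URB1 on the opposite strand, which had 1612 to 2392 counts. The counting used strand, and in 621 of 658 pairs of a gene and its named antisense gene the sense gene had more counts, with a median sense share of 99.6%. Only the sense gene of a pair had to pass the filter on low counts, so these pairs cannot bound the part of URB1 reads in the count of MRAP. That part was not tested.

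Of the other melanocortin receptor genes, 3 were at or near 0 and MC1R was not. MC3R and MC5R had no count in any library, MC4R had 0 to 1 and MRAP2, the second accessory protein gene, 0 to 3 counts. A count of 0 allows up to 3 counts at this depth. MC1R, known best from melanocytes, was the only other tested gene of this role, at 2.31 CPM per kilobase. Its level per length was thus above that of MC2R, with libraries at 1.89 to 2.75 CPM per kilobase against 0.845 to 1.13 for MC2R.

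PRKACA (chr19:14091688-14118084, minus strand, hg38) encodes the main catalytic subunit of PKA. The H295R-labelled libraries had 180, 151 and 173 CPM, and the H295R-PM-Ptc+-labelled ones had 186, 181 and 185 CPM. The groups did not overlap by a narrow margin, H295R replicate 1 being within the counting error of the lowest library of the other group. The means were 168 ± 15.3 and 184 ± 2.81 CPM (SD, n = 3), and the log2 fold change of 0.13 (SE 0.0843, 95% interval -0.061 to 0.32, edgeR adjusted p = 0.492) was not called, nor was it with the replicate block (0.0565). Without H295R replicate 2 it was 0.057. All 3 pairs of same-numbered libraries differed in the same direction, at log2 differences of 0.046, 0.26 and 0.095.

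PRKACB (chr1:84078062-84238498, plus strand, hg38) encodes the second catalytic subunit and was at 60.4, 68.7 and 67.3 CPM in the H295R-labelled libraries. Those labelled H295R-PM-Ptc+ held 65.1, 67.3 and 70.5 CPM, so that the groups overlapped. The log2 fold change was 0.046 (SE 0.0785, 95% interval -0.13 to 0.22, edgeR adjusted p = 0.836), and it turned to -0.010 without H295R replicate 1. PRKACA made up 70.7% to 76.6% of the summed catalytic level per kilobase in the 6 libraries. PRKACG, a further catalytic subunit gene, had no count in any library, and PRKX, a related kinase, was at 1.73 CPM per kilobase.

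PRKAR1A (chr17:68511780-68551319, plus strand, hg38), the type I regulatory subunit gene whose upstream stretch holds the full match shown above, had 344, 347 and 374 CPM in the H295R-labelled libraries. It had 353, 376 and 374 CPM in the H295R-PM-Ptc+-labelled ones. The libraries of both groups interleaved, with a log2 fold change of 0.049 (SE 0.0748, 95% interval -0.12 to 0.22, edgeR adjusted p = 0.811). PRKAR1B (chr7:549197-727650, minus strand, hg38), the second type I gene and known for its expression in brain, had 26.8, 25.1 and 29.1 CPM against 29.6, 28.3 and 30.4 CPM. Its groups overlapped, although all 3 same-numbered pairs were higher in the H295R-PM-Ptc+-labelled library, and its log2 fold change was 0.12 (SE 0.0839, 95% interval -0.066 to 0.31, edgeR adjusted p = 0.514).

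PRKAR2A (chr3:48744597-48847846, minus strand, hg38) and PRKAR2B (chr7:107044649-107161811, plus strand, hg38) encode the type II regulatory subunits, which bind the anchoring proteins that place PKA in the cell. PRKAR2A had 156, 184 and 183 CPM in the H295R-labelled libraries and 165, 185 and 194 CPM in the H295R-PM-Ptc+-labelled ones. Replicate 1 was the lowest library in both groups, and the groups overlapped. The log2 fold change of PRKAR2A was 0.057 (SE 0.0962, 95% interval -0.16 to 0.27, edgeR adjusted p = 0.833), and it was -0.019 when H295R replicate 1 was left out and -0.0037 when H295R-PM-Ptc+ replicate 3 was. PRKAR2B had 262, 253 and 254 CPM in the H295R-labelled libraries against 226, 245 and 238 CPM. Its groups did not overlap, every library labelled H295R-PM-Ptc+ being lower, but its log2 fold change of -0.12 (SE 0.0713, 95% interval -0.28 to 0.043, edgeR adjusted p = 0.456) was not called, nor was it with the replicate block (0.0708). The pairs of PRKAR2B differed by -0.21, -0.044 and -0.097 on the log2 scale.

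The makeup of the PKA genes was summed from the levels per kilobase, as a description without a test. PRKAR2B took 41.4 ± 1.71% of the regulatory sum in the H295R-labelled libraries and 38.4 ± 0.626% in the H295R-PM-Ptc+-labelled ones (SD, n = 3), and the ranges, 39.8% to 43.2% and 37.7% to 38.9%, did not overlap. PRKAR1A took 36.2 ± 0.793% and 37.8 ± 0.290% (SD, n = 3). The ratio of PRKAR2B to PRKAR1A was 1.14 ± 0.0661 and 1.02 ± 0.0144 (SD, n = 3), and thus both genes stood near 1 to 1 per kilobase in the H295R-PM-Ptc+-labelled libraries. In CPM PRKAR1A was the higher of them in every library. The type I genes together made up 39.6% to 41.5% and 42.0% to 43.0% of the regulatory sum. The regulatory genes summed to 144 ± 3.72 and 142 ± 6.03 CPM per kilobase and the catalytic genes to 37.1 ± 2.02 and 40.0 ± 0.581 CPM per kilobase (SD, n = 3). The regulatory sum was thereby 3.39 to 4.11 times the catalytic sum in single libraries, and the groups overlapped in this ratio. These are ratios of mRNA and say nothing of the protein subunits.

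**Figure D3:**
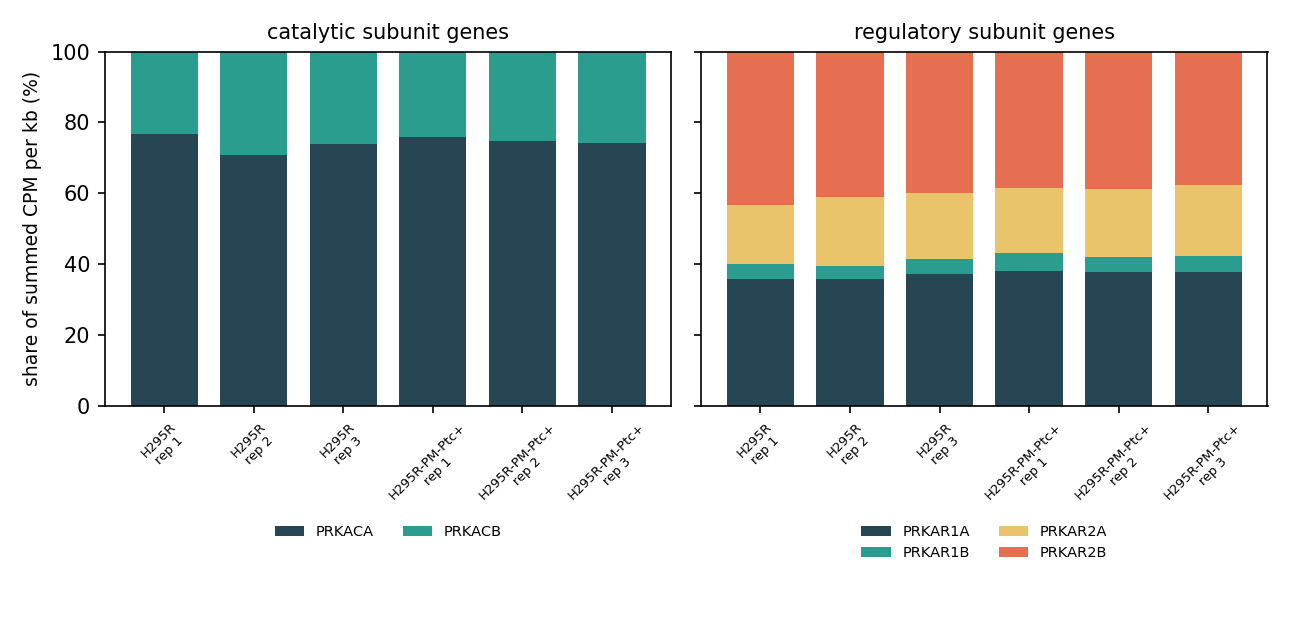
Stacked bars give, for each of the 6 libraries as labelled, the share (%) of each gene in the summed CPM per kilobase of the catalytic (left) and regulatory (right) subunit genes of PKA. PRKACA makes up 70.7% to 76.6% of the catalytic sum, and the share of PRKAR2B in the regulatory sum is 39.8% to 43.2% in the H295R-labelled libraries and 37.7% to 38.9% in the H295R-PM-Ptc+-labelled ones.

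PDE8B (chr5:77210449-77429807, plus strand, hg38), a phosphodiesterase gene whose inactivating changes have been found in adrenocortical disease, had the largest difference of the 10 genes. In the H295R-labelled libraries it had 17.0, 12.1 and 11.9 CPM, from 406, 307 and 293 counts. In the H295R-PM-Ptc+-labelled ones it had 12.0, 8.97 and 9.37 CPM, from 306, 223 and 217 counts. Replicate 1 was the highest library in both groups, and the groups overlapped only through H295R-PM-Ptc+ replicate 1, which lay at the level of replicates 2 and 3 labelled H295R. The means were 13.6 ± 2.90 and 10.1 ± 1.63 CPM (SD, n = 3), with a log2 fold change of -0.43 (SE 0.171, 95% interval -0.82 to -0.044, edgeR unadjusted p = 0.0329, adjusted p = 0.236). DESeq2 gave an adjusted p of 0.227.

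Within the same-numbered pairs PDE8B was lower in the H295R-PM-Ptc+-labelled library in 3 of 3, by log2 differences of -0.51, -0.43 and -0.34. With the replicate block its log2 fold change was -0.43 at an edgeR adjusted p of 0.00190, and without replicate 1 in both groups it was -0.39 at an adjusted p of 0.0375. Without H295R replicate 1 alone, the log2 fold change shrank to -0.24 (edgeR adjusted p = 0.368). The call for PDE8B thus rested on the replicate number entering the model or on replicate 1 being left out of both groups. Of its exon bases, 5.52% are shared with WDR41 on the opposite strand, which had 1186 to 1581 counts.

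**Figure D4:**
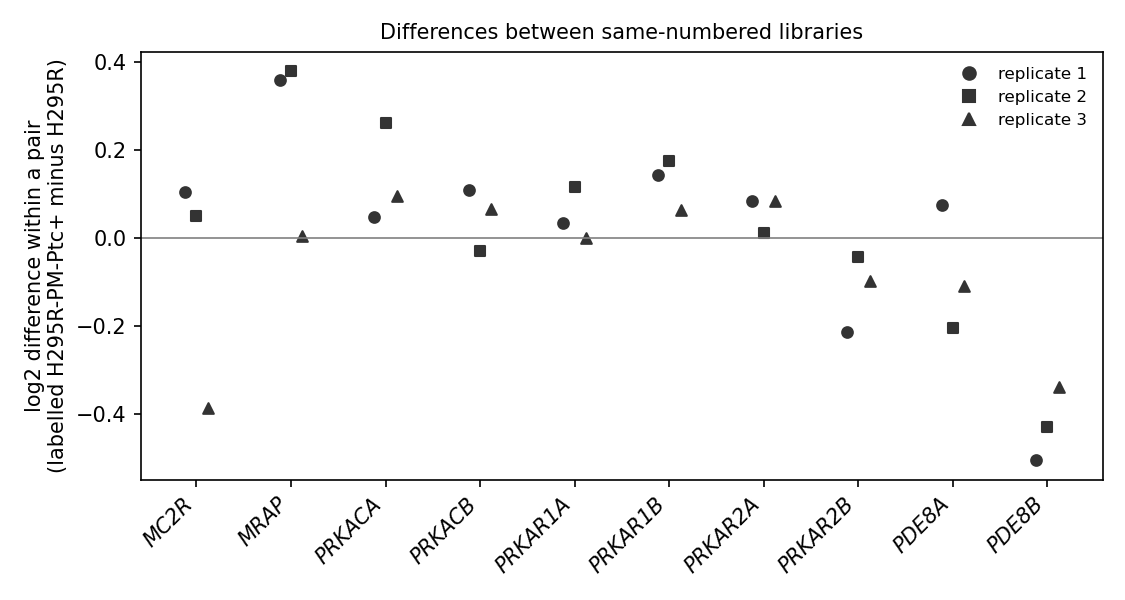
The log2 difference in normalized count between same-numbered libraries (labelled H295R-PM-Ptc+ minus labelled H295R) is plotted for each gene, with 1 point for each of the 3 pairs. All 3 points of PDE8B lie between -0.51 and -0.34, those of PRKAR2B between -0.21 and -0.044, and those of MC2R lie on both sides of 0.

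PDE8A (chr15:84980440-85139145, plus strand, hg38), the second gene of the family, had 34.3, 48.1 and 45.5 CPM in the H295R-labelled libraries. It had 36.1, 41.7 and 42.2 CPM in the H295R-PM-Ptc+-labelled ones. Replicate 1 was the lowest library of either group for PDE8A, where it was the highest for PDE8B, and the groups overlapped. The log2 fold change of PDE8A was -0.093 (SE 0.128, 95% interval -0.38 to 0.20, edgeR adjusted p = 0.788), and it turned to 0.0021 without H295R replicate 2. PDE8A gave 64.0% of the summed PDE8 level per kilobase in H295R replicate 1 and 72.6% to 80.4% in the other 5 libraries.

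Set among the 16 genes that encode cAMP-hydrolysing phosphodiesterases, PDE8A was the third and PDE8B the seventh in mean level per kilobase over the 6 libraries. Single libraries differed, as in H295R replicate 1 PDE4B (4.82) stood above PDE8A (4.35) and PDE8B (2.45) above PDE4D (1.83). PDE2A, a phosphodiesterase stimulated by cGMP and known from the adrenal cortex, was first at 23.8 CPM per kilobase and made up 40.0% to 51.7% of the sum of the 16. PDE7B followed at 7.24, and PDE4B and PDE7A stood at 4.01 and 3.80 CPM per kilobase. PDE8A made up 9.09% to 12.0% of the sum and PDE8B 2.44% to 5.12%. PDE2A had 19.1, 21.8 and 22.7 CPM per kilobase in the H295R-labelled libraries and 24.2, 26.7 and 28.2 in the H295R-PM-Ptc+-labelled ones, without overlap. Its log2 fold change of 0.31 (SE 0.0932) missed the threshold in edgeR (adjusted p = 0.111) and passed it with the replicate block (6.03e-05).

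**Figure D5:**
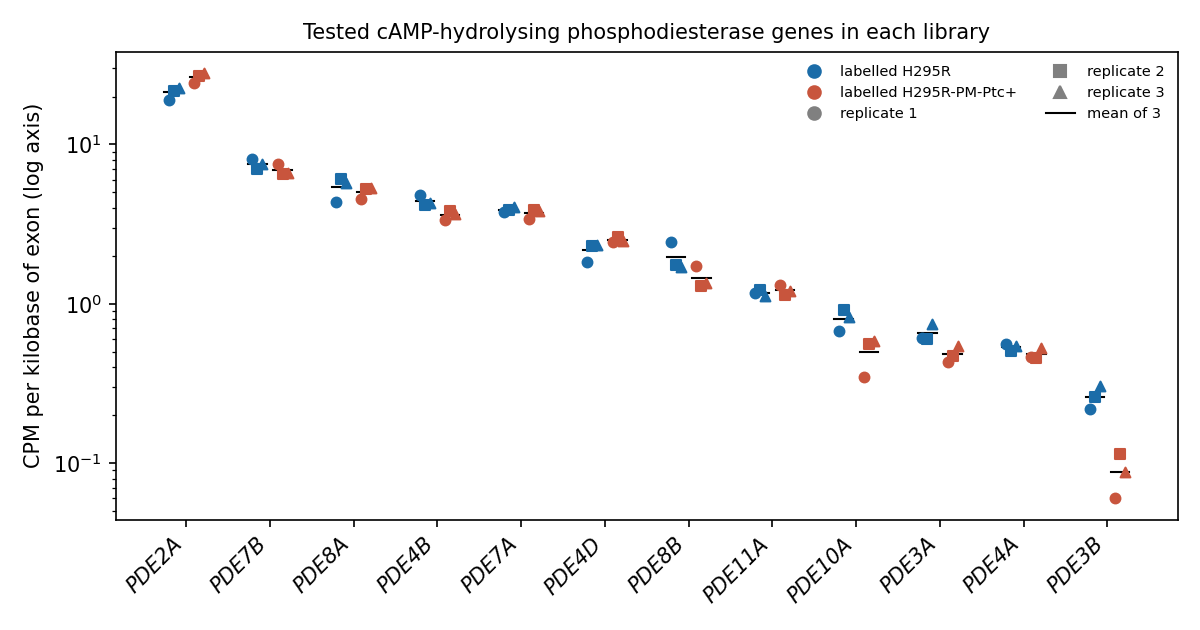
The level (CPM per kilobase of exon, log axis) of the 12 tested genes for cAMP-hydrolysing phosphodiesterases is plotted for each library, with color for the labelled group, the marker shape for the replicate number and a bar for the mean of 3. PDE2A lies highest at 23.8 on average, PDE8A the third at 5.24 and PDE8B the seventh at 1.71 CPM per kilobase.

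Among the other genes of the cAMP pathway, a list of 63 from receptors to CREB factors, 46 were tested and 5 were called by edgeR, 1 higher and 4 lower in the H295R-PM-Ptc+-labelled libraries. These are 10.9% of the tested genes of the list against 3.73% of all tested genes, and the median log2 fold change of the list was 0.012. The list was chosen with earlier results of these data known, so the 2 shares are a description and no test. ADCY2, an adenylyl cyclase gene stimulated through G protein beta-gamma subunits, fell from 5.39 ± 1.25 to 0.707 ± 0.0552 CPM (SD, n = 3), a log2 fold change of -2.92 (SE 0.231, adjusted p = 0.000393). Like that of PTCH1, this direction is the one under the deposited labels and would be the opposite under the naming in the normalized table of the study. PDE3B, a phosphodiesterase gene inhibited by cGMP, fell from 3.05 ± 0.504 to 1.02 ± 0.312 CPM, a log2 fold change of -1.57 (SE 0.247, adjusted p = 0.0101). PKIA, which encodes an inhibitor of the PKA catalytic subunit, fell from 28.7 ± 2.31 to 19.4 ± 2.73 CPM (log2 fold change -0.57, SE 0.115, adjusted p = 0.0317). GNAL, a stimulatory G protein alpha subunit gene known from olfactory neurons and brain, fell from 34.0 ± 1.28 to 26.4 ± 0.817 CPM (log2 fold change -0.36, SE 0.0742, adjusted p = 0.0335). RAPGEF3, which encodes the cAMP-activated exchange factor EPAC1, rose from 1.58 ± 0.350 to 4.11 ± 0.480 CPM (log2 fold change 1.38, SE 0.195, adjusted p = 0.00620).

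The calls of ADCY2 and RAPGEF3 held without any 1 library, but that of RAPGEF3 was lost without replicate 2 in both groups (edgeR adjusted p = 0.153). That of PDE3B was lost without H295R replicate 3 (edgeR adjusted p = 0.0530). That of PKIA was lost without H295R replicate 2 (0.116) or 3 (0.109) or H295R-PM-Ptc+ replicate 1 (0.0735) or 3 (0.137). That of GNAL was lost without H295R replicate 2 (0.114) or 3 (0.123) or any of H295R-PM-Ptc+ replicates 1, 2 and 3 (0.0807, 0.133 and 0.113). Without replicate 2 or replicate 3 in both groups, PDE3B (0.0925 and 0.189), PKIA (0.113 and 0.383) and GNAL (0.352 and 0.399) were not called either. Of the list, 3 genes were called when H295R replicate 2 was left out, 2 when it was H295R replicate 3, and 3 when it was replicate 1 or 3 of H295R-PM-Ptc+. Over all tested genes the calls in these fits, in the same order, were 278, 219, 430 and 257, against 624 with every library. The fall was thus not limited to this list. DESeq2 called 7 of the 59 genes of the list with a count, against 2.67% of all genes with a count, adding PDE10A and AKAP12, and the replicate block raised the count to 21 of the 46, of which 11 were higher and 10 lower, while it called 22.5% of all tested genes.

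By role, the called genes were 1 of 2 Gs alpha subunit genes tested, 1 of 7 adenylyl cyclase genes, 1 of 2 PKA inhibitor genes, 1 of 10 further phosphodiesterase genes and 1 of 4 other cAMP effector genes. Each of these is a single gene, and 3.73% of all tested genes were called. None of 11 A-kinase anchoring protein genes and none of 8 CREB family and co-activator genes passed in edgeR with group as the only term. At an unadjusted p under 0.05 there were 2 and 1 of them, against 17.3% of all tested genes, a share near that background. With the replicate block 3 of the 11 anchoring protein genes and 5 of the 8 CREB family and co-activator genes passed, against 22.5% of all tested genes. DESeq2 called 1 anchoring protein gene, AKAP12, and none of the CREB group. The genes with the highest level of each role were GNAS, the main Gs alpha gene (77.3 CPM per kilobase), AKAP7 among the anchoring proteins (40.3), CRTC2 among the CREB co-activators (18.6), PKIG among the PKA inhibitors (16.7), ADCY6 among the cyclases (16.3) and GPR161, a ciliary receptor that binds PKA, among the other effectors (4.44). None of these was called with all 6 libraries in edgeR without the block, but without replicate 1 in both groups AKAP7 (adjusted p = 0.0190) and ADCY6 (0.0410) passed. With the block, GNAS (log2 fold change -0.12, adjusted p = 0.0485), AKAP7 (-0.21, 0.00197) and CRTC2 (0.16, 0.0383) passed.

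Genes known to respond to ACTH or cAMP in the adrenal cortex formed a list of 20, with steroidogenic enzymes, cholesterol uptake genes and immediate early factors. Of these 19 were tested and 2 called by edgeR, both higher in the H295R-PM-Ptc+-labelled libraries, or 10.5% against 3.73% of all tested genes. This list too was chosen with earlier results of these data known. SCARB1, the receptor for cholesterol uptake from HDL, rose from 817 ± 47.6 to 1263 ± 44.4 CPM (SD, n = 3), a log2 fold change of 0.63 (SE 0.0803, adjusted p = 0.00345). At 134 CPM per kilobase it had the highest level of the list. CYP21A2, the steroid 21-hydroxylase gene, rose from 12.8 ± 2.19 to 23.5 ± 1.43 CPM (SD, n = 3), a log2 fold change of 0.88 (SE 0.126, adjusted p = 0.00670). Its count is uncertain because a near-identical pseudogene lies beside it. Both calls held without any 1 library and were lost without replicate 2 in both groups (edgeR adjusted p = 0.134 for SCARB1 and 0.127 for CYP21A2) and without replicate 3 in both groups (0.146 and 0.149). The median log2 fold change of the list was 0.029, and with the replicate block, which called 22.5% of all tested genes, 10 of the 19 passed, 7 higher and 3 lower.

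The genes whose log2 CPM followed that of MC2R most closely over the 6 libraries were PMS2P3 (Pearson's r = 0.992), GLIPR1L1 (0.979) and NBEAP1 (0.978), and for MRAP they were ZSCAN22 (0.988), CHMP4B (0.984) and DCAF15 (0.980). With 6 libraries that share groups, replicate numbers and depth, 72 tested genes correlated with MC2R and 131 with MRAP above 0.9, so that these names are a description of likeness only.

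Parts of other genes overlap with exons of the PKA genes, and their effect on the counts was not tested. PRKAR1A shares 8.005% of its exon bases with RP11-120M18.2 on the same strand, which had 3 to 11 counts. PRKAR1B shares 8.53% with HEATR2 and PRKAR2A 4.14% with PRKAR2A-AS1, both on the opposite strand, with 964 to 1065 and 48 to 77 counts.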

How the data were processed

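RNA of 3 libraries labelled H295R and 3 labelled H295R-PM-Ptc+ was sequenced in pairs. Per the labels and methods, the authors aligned reads with STAR 2.4.0a to hg38 and counted fragments per gene name on the forward strand setting with featureCounts, multi-mapped reads at their primary position (Subread 1.5.0-p3 in the submitters' processing notes). The authors deposited these raw counts without normalization or filter. An unnamed row held 0 counts and was left out, and 0 columns were unused.

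The test was the two-sided quasi-likelihood F-test of edgeR 4.0.16 (R 4.3.3, filterByExpr, TMM) with no term other than group, and Benjamini-Hochberg adjustment over 16710 genes and calls at an adjusted p under 0.05. CPM use TMM-scaled library sizes and levels per kilobase divide by the deposited exon length. Intervals are 95%, and counting error is that of the counts only. The script was tested on simulated data.

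Named were the 10 genes, PTCH1, every called gene of the pathway and cAMP-responsive lists, the highest gene of each role, and the 3 genes most like MC2R and MRAP (log2 of CPM plus 0.5). The genes and lists were chosen with earlier results of these data known.

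Same-numbered replicates, a number taken from the labels, deviated together from the group means (correlations of 0.497, 0.307 and 0.228 across genes, against -0.352 to 0.150 for other pairs), so that a fit with the replicate block was also run. Other alternatives were DESeq2 1.42.0, relative log expression factors, no filter, a minimum of 10 counts per library, and fits without each library or each replicate number. Promoters came from RefSeq (GRCh38.p14). Python 3.11.15 with pandas 2.3.3 made the tables and matplotlib 3.10.9 the plots. The summed level of the adrenal medulla markers is not reported here.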

Additional observations from a re-analysis of the deposited data

How the results depend on the processing

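With the replicate block, which pairs same-numbered libraries, the called genes rose from 0 to 1 of the 10 (PDE8B), from 5 to 21 in the pathway list, from 2 to 10 in the cAMP-responsive list and from 624 to 3758 over all genes, and the block changed the call of no other member. Without a filter on low counts 8 pathway genes and 1111 of all genes were called. Leaving out a replicate number in both groups gave 0 to 1 of the 10 genes, 1 to 13 pathway genes, 0 to 4 cAMP-responsive genes and 64 to 2013 of all genes (84 without replicate 3). Over all genes the largest count came without replicate 1 and the smallest without replicate 2. With 1 library left out, 2 to 7 pathway genes and 219 to 810 of all genes were called, among them 278 when H295R replicate 2 was dropped, 219 for H295R replicate 3, 247 for H295R-PM-Ptc+ replicate 2 and 257 for its replicate 3. The cause was not tested.

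Across the fits that left out libraries the log2 fold change ranged from -0.21 to 0.069 for MC2R, -0.010 to 0.085 for PRKACB, -0.019 to 0.11 for PRKAR2A, -0.23 to 0.0021 for PDE8A, -0.16 to 0.0011 for GPR161, -0.056 to 0.28 for MC1R and -0.17 to 0.041 for PRKX, so that the direction of these 7 was not fixed. Leaving out single libraries gave at most 0.0019 for MC2R and 0.081 for PRKACB when replicates 3 of H295R-PM-Ptc+ and 2 of H295R were dropped, and -0.14 for PRKX without H295R-PM-Ptc+ replicate 3, while PRKX stood at 0.010 and 0.023 without replicate 1 or 2 in both groups. MRAP, PRKACA, PRKAR1A and PRKAR1B stayed above 0 and PRKAR2B and PDE8B below 0 in all 14 alternatives. At 54 to 108 counts a library, counting error alone was 9.62% to 13.6% of the counts of MC2R and MRAP.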
